A study of Mus musculus with 4 samples.

Results

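The genes described here encode 9 proteins that build iron-sulfur clusters and hand them on. They are Nfs1, Iscu, Hspa9, Hscb, Glrx5, Isca1, Isca2 and Nfu1, which act in mitochondria, and Ciao1, which acts in the cytosol. They were taken by symbol from a table of 47729 genes, all 9 matched 1 Ensembl gene each, and all 9 passed the filter on low counts. The libraries came from C57BL/6 spleen CD4 T cells cultured for 4 days towards induced regulatory T (iTreg) cells, under 5 ng/mL rhTGF-β, 100 U/mL rhIL2 and blocking antibodies to IL4 and IFNγ at 5 µg/mL each. The FeSO4 group (2 libraries) also received 50 µM FeSO4, and the Mock group (2 libraries) received PBS. Per the study's methods, the pairs came from independent experiments and the cells were activated through CD3 and CD28. Neither the labels nor the methods describe a sort of Foxp3+ cells for these cultures, so each library stands for the whole culture.

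Iron-sulfur clusters are small inorganic cofactors that carry electrons or hold substrates in enzymes of respiration, the citric acid cycle, lipoic acid synthesis and DNA replication. In mitochondria, sulfur taken from cysteine is joined with iron on a scaffold protein, a chaperone pair releases the cluster, and carrier proteins pass it to the recipient enzymes. A separate cytosolic machinery equips enzymes of the cytosol and nucleus. Added iron supplies a substrate of this pathway, so the comparison asks whether transcripts of the assembly machinery differed between iTreg cells with and without FeSO4.

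The members carried 686 to 10157 counts per library, out of 35183187 to 40859178 counts in gene rows, and none was near the limit of detection. At an adjusted p under 0.05 by edgeR's quasi-likelihood test, 0 of 9 members were called higher and 0 of 9 were called lower in FeSO4. Of all 13732 genes tested, 10.9% were called higher and 9.17% lower. Among the 7150 tested genes that averaged 20 CPM or more (CPM being the count scaled to a TMM-adjusted library size), a level that every member exceeds, these shares were 16.1% and 11.2%. At an unadjusted p under 0.05, 1 of 9 members passed, which was Hspa9, where at least 4377 of the 13732 tested genes did. DESeq2 and limma-voom each also gave 1 member at that level and 0 after adjustment. With unadjusted library sizes, with every gene of at least 1 count kept or without FeSO4 replicate 1, 0 members passed at that level by edgeR. By the study's cut-offs applied to the edgeR fit (unadjusted p under 0.05 and a log2 change of 0.5 or more either way), none of the 9 members passed (0 of 9), where 10.4% of the tested genes did.

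The differences were small. The 9 log2 fold changes, FeSO4 over Mock, ran from -0.11 for Isca2 to 0.16 for Hspa9, with a median of 0.03, where the median of all tested genes was -0.00052. The members' median had no stable sign. It was 0.089 without Mock replicate 1 and 0.074 without FeSO4 replicate 2, but -0.050 without Mock replicate 2, -0.046 without FeSO4 replicate 1 and -0.039 with unadjusted library sizes. The median size of the log2 fold change, sign aside, was 0.057 for the members, 0.14 for the genes of at least 20 CPM and 0.20 for all tested genes. The 95% interval of the log2 fold change lay within 0.5 of 0 for 9 of 9 members and within 0.25 of 0 for 4 of 9, and its outermost bounds were -0.34 (Isca2) and 0.32 (Hscb). It included 0 for 8 of 9 members, the exception being Hspa9. At least 4377 of the 13732 tested genes had an unadjusted p under 0.05 by the same test, the level at which this interval leaves out 0. The missing calls do not show equal levels. Both FeSO4 libraries were above both Mock libraries for 4 members and below them for 2, where 30.1% of all tested genes lay above and 29.4% lay below.

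**Figure D1:**
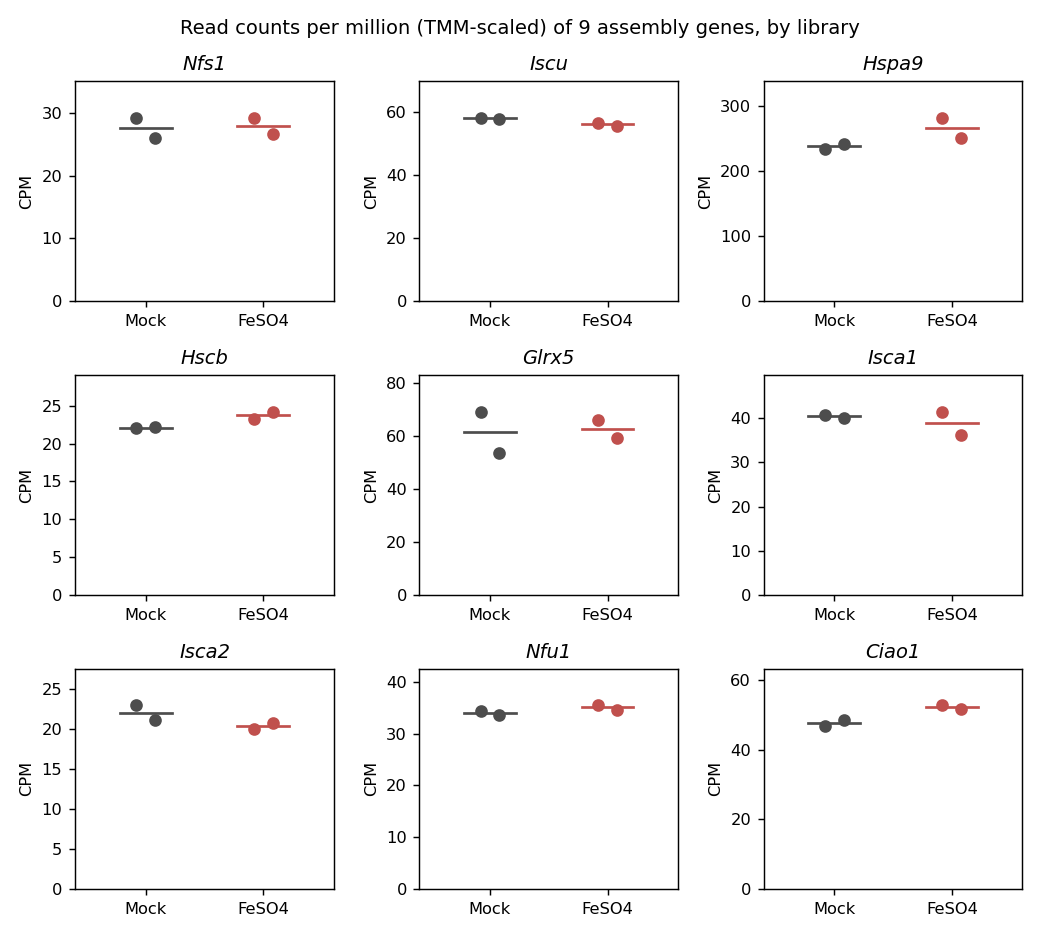
CPM (y axis, from 0) of the 9 assembly genes in the 2 Mock and 2 FeSO4 libraries. Points are libraries and bars are group means. The groups overlap for Nfs1, Glrx5 and Isca1 and do not for the other 6 genes, and the largest gap between group means is 11.8% (Hspa9).

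Levels were compared between genes per kb of exon, since longer transcripts collect more reads. In this unit the order from high to low was Glrx5, Hspa9, Iscu, Hscb, Isca2, Nfu1, Ciao1, Isca1 and Nfs1. Glrx5 averaged 66.7 CPM per kb over the 4 libraries (57.8 to 74.4) and Hspa9 64.3 (59.6 to 71.9), so these neighbours overlapped, and both were above every other member in every library. Iscu, Hscb and Isca2 formed a middle group at 26.2, 25.3 and 24.4 CPM per kb on average, with overlapping ranges. Nfu1 (16.6) and Ciao1 (15.6) also overlapped each other. Isca1 (9.24, range 8.46 to 9.68) and Nfs1 (6.63, range 6.22 to 6.98) were lowest and did not overlap. Nfs1 shares exon bases with Romo1, Cpne1 and Rbm12, and reads on its 3.46 kb of unshared exon were not counted apart. If all its counts came from there, it would range from 7.52 to 8.43 CPM per kb, just under the range of Isca1. No other member shares exon bases with another gene. Exon lengths merge every annotated exon of a gene in an older annotation (GENCODE M1), and the transcripts in use were not told apart. The order by level therefore depends on these lengths.

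**Figure D2:**
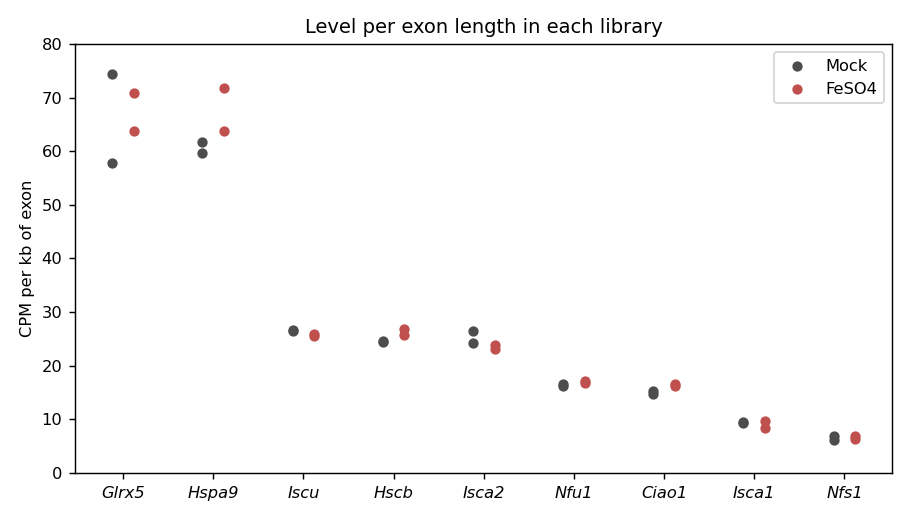
CPM per kb of exon (y axis, from 0) of the 9 genes in each library, ordered by their mean over the 4 libraries. Points are libraries, grey for Mock and red for FeSO4. Glrx5 and Hspa9 stand above 57 in every library, and Isca1 and Nfs1 stay under 10.

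Nfs1 and Iscu carry out the opening step. Nfs1 is the cysteine desulfurase that supplies sulfur, and Iscu is the scaffold on which the cluster forms. Nfs1 (ENSMUSG00000027618, chromosome 2 at 156123637 to 156144202, GRCm38, minus strand) had 29.2 and 26.1 CPM in Mock replicates 1 and 2 against 29.2 and 26.6 CPM in FeSO4 replicates 1 and 2. The groups overlapped, and replicate 1 was higher than replicate 2 in both. The log2 fold change was 0.01 ± 0.10 (SE), with an interval of -0.21 to 0.23 and an adjusted p of 0.952 by edgeR's quasi-likelihood test. Without Mock replicate 2 or FeSO4 replicate 1, and with library sizes unadjusted or scaled by the upper quartile, its sign was negative.

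Iscu (ENSMUSG00000025825, chromosome 5 at 113772418 to 113778288, plus strand) was the member with the closest replicates. It had 58.1 and 57.8 CPM in Mock against 56.3 and 55.7 CPM with FeSO4, so both FeSO4 libraries were slightly below both Mock libraries. The log2 fold change was -0.05 ± 0.08 (SE, interval -0.21 to 0.11, edgeR adjusted p = 0.708). Per kb of exon, Iscu was 3.71 to 4.27 times the level of Nfs1 in the 4 libraries. This ratio counts the Nfs1 exon bases shared with other genes. On its unshared exon, Nfs1 could reach 7.52 to 8.43 CPM per kb, and the ratio would then be smaller.

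Hspa9 and Hscb encode the chaperones that free the cluster from Iscu. Hspa9 (mortalin) is the mitochondrial HSP70, which also drives protein import into the matrix, and Hscb is its J-domain partner for iron-sulfur work. Hspa9 (ENSMUSG00000024359, chromosome 18 at 34937414 to 34954351, minus strand) had 234 and 243 CPM in Mock against 283 and 251 CPM with FeSO4. Both FeSO4 libraries were higher, FeSO4 replicate 1 much more so than replicate 2. The group means were 239 ± 5.97 and 267 ± 22.3 CPM (SD, n = 2 each). The log2 fold change of 0.16 ± 0.07 (SE, interval 0.02 to 0.30) was the largest of the members and had an adjusted p of 0.11 by edgeR. The value was 0.095 with unadjusted library sizes, and it moved with the FeSO4 library kept. Without FeSO4 replicate 1 it was 0.08 (edgeR adjusted p = 0.662), and without FeSO4 replicate 2 it was 0.25 (edgeR adjusted p = 0.0479), the only setting that called a member. In both of these fits FeSO4 kept 1 library, so the spread came from the 2 Mock libraries. The processed copy of Hspa9, Hspa9-ps1, had 0 counts in each library.

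Hscb (ENSMUSG00000043510, chromosome 5 at 110829070 to 110839793, minus strand) had 22.03 and 22.2 CPM in Mock against 23.2 and 24.2 CPM with FeSO4. The groups did not overlap, but the log2 fold change was 0.10 ± 0.10 (SE, interval -0.12 to 0.32, edgeR adjusted p = 0.543). Hspa9 exceeded Hscb by 2.38 to 2.80 times per kb of exon.

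Glrx5, Isca1, Isca2 and Nfu1 act later. Glrx5 is a monothiol glutaredoxin that receives the cluster from the chaperones, Isca1 and Isca2 are the A-type proteins needed for the larger cubane clusters, and Nfu1 delivers such clusters to recipients that include lipoic acid synthase. Glrx5 (ENSMUSG00000021102, chromosome 12 at 105032618 to 105040911, plus strand) had the largest log2 difference of the members between the Mock replicates, with 69.2 and 53.8 CPM in Mock against 65.9 and 59.4 CPM with FeSO4. The Mock libraries enclosed the FeSO4 libraries, and the log2 difference between the Mock libraries (0.36) was larger than that between the groups (0.03 ± 0.10, SE, interval -0.19 to 0.24, edgeR adjusted p = 0.896). Its log2 fold change ran from -0.14 without Mock replicate 2 to 0.21 without Mock replicate 1.

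Isca1 (ENSMUSG00000044792, chromosome 13 at 59755415 to 59769789, minus strand) had 40.7 and 40.1 CPM in Mock against 41.5 and 36.3 CPM with FeSO4. The FeSO4 libraries lay on either side of Mock (log2 fold change -0.06 ± 0.09, SE, interval -0.25 to 0.14, edgeR adjusted p = 0.72), and without FeSO4 replicate 2 the sign was positive. Isca2 (ENSMUSG00000021241, chromosome 12 at 84773230 to 84775089, plus strand) had 22.9 and 21.1 CPM in Mock against 20.02 and 20.7 CPM with FeSO4. Both FeSO4 libraries were lower, by 0.11 ± 0.11 on the log2 scale (SE, interval of the change -0.34 to 0.12, edgeR adjusted p = 0.533). Over merged exons of 0.868 and 4.288 kb, Isca2 was 2.38 to 2.82 times the level of Isca1 per kb in each library. In CPM, not divided by length, Isca1 was the higher in each library, so this ratio depends on the annotated lengths.

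Nfu1 (ENSMUSG00000029993, chromosome 6 at 87009234 to 87028461, plus strand) had 34.3 and 33.6 CPM in Mock against 35.5 and 34.7 CPM with FeSO4. All 4 values lay close together, with both FeSO4 libraries on top. The log2 fold change was 0.05 ± 0.09 (SE, interval -0.14 to 0.24, edgeR adjusted p = 0.769), and with unadjusted library sizes the sign was negative.

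Ciao1 is the WD40 protein of the cytosolic targeting complex, which docks recipient proteins of the cytosol and nucleus. Ciao1 (ENSMUSG00000003662, chromosome 2 at 127240938 to 127247816, minus strand) had 46.8 and 48.7 CPM in Mock against 52.8 and 51.8 CPM with FeSO4. Both FeSO4 libraries were above both Mock libraries by more than either pair of replicates differed. The log2 fold change was 0.13 ± 0.08 (SE, interval -0.04 to 0.30), and the adjusted p of 0.276 by edgeR did not pass. It was positive under all 14 alternatives run for it (0.07 to 0.16). The study's cut-offs, counted among these, reuse the main fit, so the sign could not differ there.

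The remaining genes of the pathway were read from a list of 24 partners, all tested, of which 3 were higher and 1 was lower in FeSO4 past the threshold. Their median log2 fold change was 0.07, and 10.9% and 9.17% of all tested genes were called in these directions. In the mitochondrial branch, 1 of 14 partners passed. Bola3, which acts beside Nfu1 in delivery to lipoic acid synthase, rose from 30.2 and 29.8 CPM in Mock to 37.4 and 36.5 CPM in FeSO4 (log2 fold change 0.30 ± 0.09, SE, edgeR adjusted p = 0.0289). No library of one group reached the other. Lyrm4, the small partner that stabilizes Nfs1, had a log2 fold change of 0.11 ± 0.17 (SE) and did not pass.

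In the cytosolic branch, 2 of 10 partners were higher and 1 was lower past the threshold, where 10.9% and 9.17% of all tested genes were, and the difference from these shares was not tested. Ciao2a and Ciao2b (listed under their older symbols Fam96a and Fam96b) encode the direct partners of Ciao1 in the targeting complex, and Ciao2a is known for maturation of the iron regulatory protein IRP1. Ciao2a rose from 61.0 and 61.6 CPM in Mock to 77.2 and 77.1 CPM in FeSO4, a log2 fold change of 0.33 ± 0.07 (SE, edgeR adjusted p = 0.00439). The replicates nearly coincided in each group. Ciao2b rose from 33.5 and 25.9 CPM to 38.6 and 35.9 CPM (0.33 ± 0.11, SE, edgeR adjusted p = 0.0485), with Mock replicate 2 well below the rest. Ndor1, the flavoprotein that feeds electrons to early cytosolic assembly, fell from 66.4 and 66.6 CPM to 56.2 and 51.7 CPM (-0.30 ± 0.08, SE, edgeR adjusted p = 0.0122). Mms19, the large subunit of the same targeting complex, had 87.6 and 83.3 CPM in Mock against 82.6 and 78.9 CPM with FeSO4 without passing. The exons of Ndor1, Ciao2b and Mms19 overlap genes on the opposite strand (Tmem203, 1700082M22Rik and Zdhhc16), and the strand setting of the counts is not known. Without Mock replicate 2 or without FeSO4 replicate 1 only 1 partner was called higher, and without FeSO4 replicate 2 none was called lower. Ciao2b was not called without Mock replicate 2 (0.16, edgeR adjusted p = 0.388), without FeSO4 replicate 1 (0.28, edgeR adjusted p = 0.193), with the upper quartile (edgeR adjusted p = 0.0653), with unadjusted library sizes (edgeR adjusted p = 0.11), with every gene of at least 1 count kept (edgeR adjusted p = 0.237) or by DESeq2 (adjusted p = 0.0688), and it was at 0.52 without Mock replicate 1. Bola3 was not called without any 1 of the 4 libraries, where its log2 fold change was 0.28 to 0.32. It was also not called with unadjusted library sizes (0.23, edgeR adjusted p = 0.0793) or with every gene of at least 1 count kept (0.30, edgeR adjusted p = 0.0871).

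**Figure D3:**
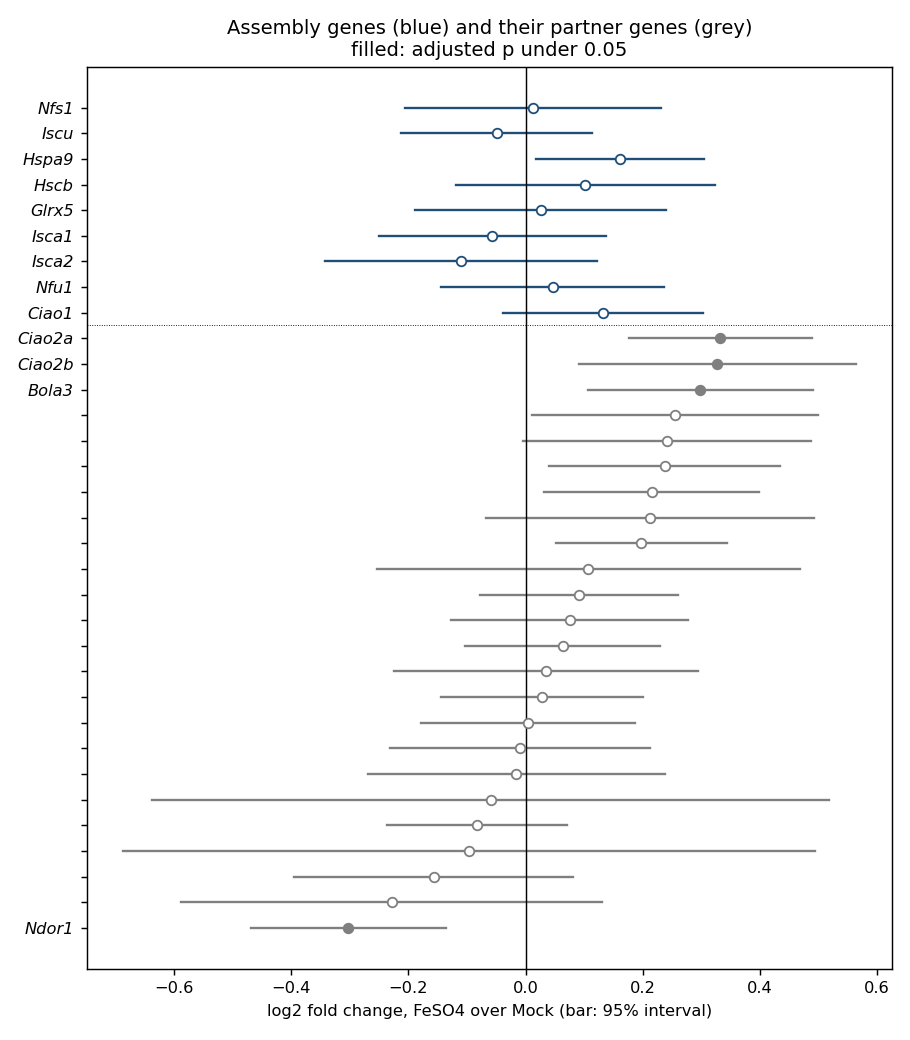
Log2 fold change of FeSO4 over Mock (x axis) with its 95% interval for the 9 assembly genes (blue) and 24 partner genes (grey, in order of their change, with the called ones labelled). Filled points have an adjusted p under 0.05. No blue point is filled, and Bola3, Ciao2a and Ciao2b (right of 0) and Ndor1 (left of 0) are the filled grey points.

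The proteins that receive clusters were read from a list of 38 genes, of which 36 passed the filter on low counts. In FeSO4, 2 of the 36 were higher past the threshold and 0 were lower, with a median log2 fold change of 0.01. Of all tested genes, 10.9% were higher and 9.17% lower, and the difference from the recipients' shares was not tested. The called pair encodes respiratory chain subunits. Sdhb, the iron-sulfur subunit of complex II, rose by 0.22 ± 0.07 (SE) on the log2 scale (158 and 144 CPM in Mock, 179 and 173 CPM in FeSO4; edgeR adjusted p = 0.0295). Ndufv2, a complex I subunit, rose by 0.21 ± 0.07 (SE) on the same scale (97.8 and 94.6 CPM in Mock, 108 and 115 CPM in FeSO4; edgeR adjusted p = 0.0421). For both, the FeSO4 libraries were clear of the Mock libraries. The cytosolic aconitase Aco1 (IRP1), which switches between enzyme and RNA-binding protein with its cluster, had 54.7 and 54.6 CPM in Mock against 59.4 and 58.3 CPM with FeSO4 (0.11 ± 0.08, SE, edgeR adjusted p = 0.375). Ferrochelatase Fech (-0.04 ± 0.08, SE), which inserts iron into protoporphyrin to form heme, did not pass. Of 22 tested cytosolic and nuclear recipients, 0 were called in either direction by edgeR. Ndufv2 was not called without any 1 of the 4 libraries, where its log2 fold change was 0.17 to 0.26. Sdhb was called without Mock replicate 1 (log2 fold change 0.29) but not without any other library (0.16 to 0.25). Without FeSO4 replicate 2, 1 recipient outside this pair was called.

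A list of mitochondrial import genes, porins, prohibitins, matrix chaperonins, citrate synthase, the protease Lonp1 and the DNA factor Tfam gave a reading of other mitochondrial transcripts in the same libraries. Of 18 listed, 17 were found and tested, and 9 of these were higher past the threshold while 0 were lower. Of tested genes that averaged 20 CPM or more, as all of these do, 16.1% were called higher and 11.2% lower. Their median log2 fold change was 0.22, against 0.03 for the 9 assembly genes, and the difference between these lists was not tested. The called genes were Tomm40, Timm17a and Timm23 (import channels), Vdac1, Vdac2 and Vdac3 (outer membrane porins), Phb2 (a prohibitin), and Hspd1 and Hspe1 (the HSP60 chaperonin and its cofactor). Hspd1 had 220 and 240 CPM in Mock against 298 and 271 CPM with FeSO4 (0.31 ± 0.07, SE, edgeR adjusted p = 0.00434). Its exons overlap those of Hspe1 on the opposite strand. Like Hspa9, which works in the same matrix, Hspd1 was higher in FeSO4 replicate 1 than in replicate 2. It was not called without FeSO4 replicate 1 (0.24) or with every gene of at least 1 count kept (0.31, edgeR adjusted p = 0.0779). Vdac1 had 223 and 219 CPM in Mock against 266 and 269 CPM with FeSO4 (0.27 ± 0.06, SE, edgeR adjusted p = 0.00449). Citrate synthase Cs (0.12 ± 0.06, SE) did not pass. Timm44, Phb, Tfam and Lonp1 had log2 fold changes below 0, from -0.09 (Lonp1, with both FeSO4 libraries below both Mock libraries) to -0.0016 (Tfam), and none of them passed. The count of 9 was 3 without Mock replicate 2 and 2 without FeSO4 replicate 1.

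**Figure D4:**
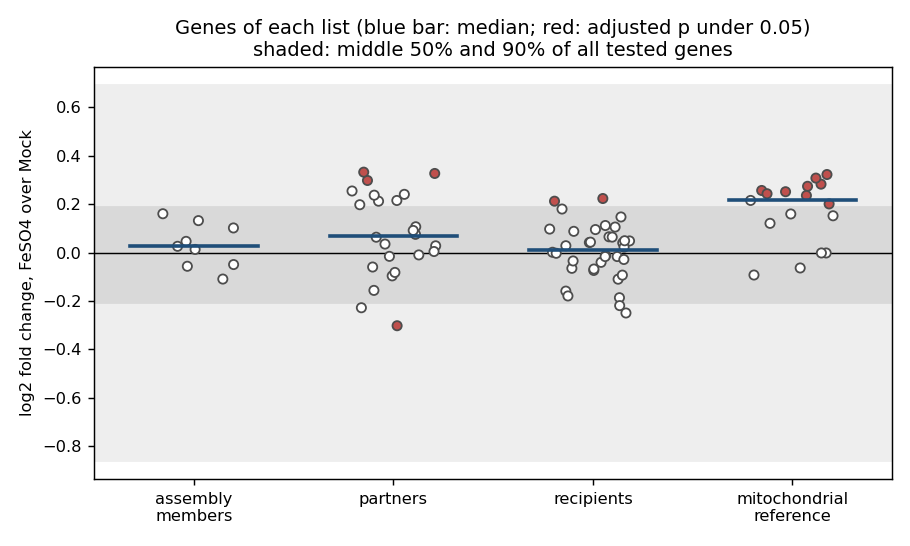
Log2 fold change of FeSO4 over Mock (y axis) for each tested gene of 4 lists, with the list median as a blue bar and genes with an adjusted p under 0.05 in red. The shaded bands hold the middle 50% and 90% of all tested genes. All 9 assembly genes lie inside the inner band, which runs from -0.21 to 0.19.

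Promoter sequence was read as a feature that the choice of genes did not use. RefSeq promoter windows (GRCm38.p6, 250 bases before to 50 after the start) were found for 6 of the 9 members, Nfs1, Glrx5, Isca1, Isca2, Nfu1 and Ciao1, and 4 motifs were searched on both strands. The letters CCAAT, the core of the box that the factor NF-Y can bind, were in 4 of the 6 windows (Glrx5, Isca1, Isca2 and Nfu1), against 37.4% of all 32851 windows. The letters CCGGAAG, read by ETS family factors such as GABP, were in 4 of the 6 (Nfs1, Isca1, Isca2 and Ciao1) and in 8.86% of all windows. The GC box GGGCGG was in 3 of the 6 (Isca2, Nfu1 and Ciao1) and in 35.7% of all. The letters TATAAA were in 0 of the 6 and in 13.6% of all. The motifs were chosen with the sequences in view, and a match is a string of letters, not a binding site.

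The libraries were checked against markers of the labelled and of other cells. The T cell genes Cd3e, Cd4, Cd28 and Il2ra were present at 108 to 1586 CPM, and Foxp3 had 587 and 693 CPM in Mock against 376 and 472 CPM with FeSO4 (lower, edgeR adjusted p = 0.000223). Of these genes Cd28 was called higher (0.21 ± 0.07, SE, edgeR adjusted p = 0.0475), and Cd3e and Cd4 (0.13 each) lay higher in both FeSO4 libraries without passing. NK cell markers (2 of 2) were at 0 counts, and the summed B cell, myeloid and CD8 T cell markers were at 2.38 to 3.38, 0.379 to 4.46 and 9.04 to 11.02 CPM. The upper end of the myeloid range was Mock replicate 1 alone, where Lyz2 had 164 counts against 8, 0 and 0 in the other libraries. Of the erythroid list, whose cells make much heme and use Glrx5 for it, 8 of 10 genes were found. The beta globin genes Hbb-bs and Hbb-bt matched no gene ID, so the sum leaves them out. The summed level of the 8 genes found came to 26.2 and 21.1 CPM in Mock against 39.8 and 34.6 CPM with FeSO4. Nearly all of it was Hba-a1 (called higher, edgeR adjusted p = 0.000731), whose copy Hba-a2 can share reads with it, while Slc4a1 was at 0 counts and Alas2 had 4 to 16. The part of these myeloid and erythroid transcripts in the members' values was not tested. In bulk RNA, a change in the share of a cell type and a change in RNA per cell cannot be told apart.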

How the data were processed

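RNA was sequenced from 2 Mock and 2 FeSO4 cultures. The authors deposited raw counts per Ensembl gene, 1 column per library. The submitters' processing notes name Trim Galore 0.6.7, STAR 2.7.9a, featureCounts and mm10, the methods name STAR, mm9 and DESeq, and the 5 closing rows of unassigned reads (15.9 to 17.3% of reads, left out here) follow the layout of htseq-count. The strand setting and the annotation used for counting are not given in the sources used here. Positions are from RefSeq on GRCm38.p6, and exon lengths and overlaps from GENCODE M1.

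Of 116 listed symbols, 113 matched 1 Ensembl ID, older names accepted. Counts were fitted in edgeR 4.0.16 (R 4.3.3; filterByExpr, TMM, glmQLFit with legacy off, glmQLFTest on group), with Benjamini-Hochberg adjustment over 13732 genes. The SE is the log2 fold change divided by the square root of F. Alternatives were DESeq2 1.42.0, limma-voom (limma 3.58.1), other scalings and filters, a replicate block and leaving out each library. Leaving out a library left 1 in its group, so the spread then came from the 2 libraries of the other group. The fit was tested on simulated data. With 2 against 2 libraries an exact permutation test cannot go below p = 0.333, so p-values rest on spread shared across genes. Within each group, neither library repeated the other (chi-square per degree of freedom 8.85 for Mock and 7.25 for FeSO4). By rule, the members, the called list genes and a few fixed genes (Lyrm4, Aco1 and Fech among them) were named, and Mms19, Cs, Timm44, Phb, Tfam and Lonp1 were added after their values were seen. Some listed genes are not reported here by name. Members and lists were chosen with earlier results of these data known.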

Additional observations from a re-analysis of the deposited data

How the results depend on the processing

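Across 14 alternatives, no member was called lower, and a member was called higher in 1 of them (1 gene, Hspa9, without FeSO4 replicate 2), so the range over left-out libraries was 0 to 1. The members' median log2 fold change, 0.026, was -0.039 with library size only and ran from -0.050 to 0.089 over left-out libraries. Signs of uncalled members changed as follows. With the upper quartile Nfs1 was at -0.0063, and with library size only Nfs1 was at -0.052, Glrx5 at -0.039 and Nfu1 at -0.019, a setting that moved the median of all genes to -0.066. Over left-out libraries the log2 fold change ran from -0.063 to 0.089 for Nfs1, from -0.14 to 0.21 for Glrx5 and from -0.15 to 0.042 for Isca1.

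The replicate numbers are in the labels, and the methods state pairs of samples from independent experiments without tying them to the numbers. Deviations of same-numbered libraries correlated at 0.03 over all tested genes, low-count genes among them. This value does not settle whether the numbers mark the pairs. With the replicate block, 1847 genes were higher and 1580 lower in place of 1491 and 1259, 0 members were called, the adjusted p of Hspa9 was 0.0571, and higher partners numbered 4 and higher mitochondrial reference genes 10.

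Called partners numbered 3 higher and 1 lower. Higher partners were 1 with library size only, 1 with all genes of at least 1 count, 0 by the study's rule and 1 to 3 over left-out libraries. Lower partners were 0 with all genes of at least 1 count, 0 by the study's rule and 0 to 1 over left-out libraries. Higher recipients, 2 as reported, numbered 1 with the upper quartile, 0 with library size only, 0 with all genes of at least 1 count, 0 by the study's rule and 0 to 1 over left-out libraries, where the 1 without FeSO4 replicate 2 was neither of the reported pair. Higher mitochondrial reference genes, 9 as reported, numbered 4 with library size only, 1 with all genes of at least 1 count, 0 by the study's rule and 2 to 9 over left-out libraries. The cause was not tested. Over all genes, calls with all genes of at least 1 count were 524 higher and 304 lower, and by the study's rule 641 and 787. Higher genes made up 54.2% of calls, 35.1% with library size only and 44.9% by the study's rule. The legacy form of the quasi-likelihood fit was added after the data were seen and also called 0 members.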
